A study of Mus musculus with 6 samples.

Results

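The genes of transforming growth factor beta (TGF-beta) and bone morphogenetic protein (BMP) signaling were examined in mouse hearts. Mice with heart failure with preserved ejection fraction (HFpEF) were compared with Chow mice, and the study names the tissue left ventricular myocardium. The gene set held 39 of the 54532 gene identifiers measured, chosen by symbol from the known parts of the pathway when earlier results of these data were already known. It comprised 11 ligands, 4 latent TGF-beta binding proteins, 6 antagonists, 8 receptors, 7 Smads and Smad modulators, and the 3 target genes Id1, Id2 and Id3. HFpEF was induced in male C57BL/6 mice, 6 to 8 weeks old at the start, by 12 weeks of a high-fat diet with 60% of its calories from fat and of the nitric oxide synthase inhibitor L-NAME at 0.5 g/L in the water they drank. Chow animals were of the same strain and sex and had standard food and plain water over those weeks. RNA was sequenced from 3 mice per group, each library coming from a different animal, and the group and number of each library were given by the sample labels. The HFpEF group received the diet and the inhibitor together, so the effect of either alone cannot be told apart. The labels give no genotype, and the study lists its mice as wild type.

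Ligands of the TGF-beta and activin branch bind pairs of serine/threonine kinase receptors that phosphorylate Smad2 and Smad3, whereas most BMP ligands act through Smad1, Smad5 and Smad9, and both branches share Smad4. TGF-beta is secreted as an inactive complex that is tethered to the matrix by latent binding proteins, and antagonists such as follistatin and the chordin-like proteins hold ligands away from their receptors. In heart tissue TGF-beta is best known for driving fibroblasts to make collagen, and BMP signaling for valve formation and for inducing the Id genes.

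Gene expression was given as FPKM, the read number of a gene scaled to transcript length and to a depth value for each library. Whole read numbers were recovered from the FPKM steps and came to 13076800 to 15574900 reads per Chow library and 13461700 to 16027100 per HFpEF library. The depth value behind the FPKM differed from these totals. It was 14239700 against 15574900 reads in Chow replicate 1 and 19316900 against 15196300 in HFpEF replicate 3. Median-of-ratios factors of the deposited FPKM were 0.9986 to 1.0018, so the libraries were already nearly equal by that measure. HFpEF replicate 3 stood apart from the other 5 libraries: mitochondrial genes took 7.17% of its reads against 20.1% to 26.0% elsewhere, and Col1a1, a collagen I chain, reached 2252 FPKM against 24.9 to 87.2. The tissue, heart in the labels and left ventricle in the methods of the study, was checked against marker genes, which were summed as FPKM over each list. Ventricular cardiomyocyte markers, led by Actc1, Myh6 and Myl2, came to 11286 to 12418 in Chow and 5452 to 8811 in HFpEF, with 5 of 5 lower in every HFpEF library. Fibroblast markers (Dcn, Dpt, Lum and others) came to 186 to 228 in Chow and 320 to 619 in HFpEF, with 4 of 5 higher without overlap. Macrophage markers (C1qa, Csf1r, Adgre1 and Cd68) gave 61.7 to 77.5 and 78.1 to 209, mesothelial markers (Msln, Upk3b, Lrrn4 and Wt1) 15.6 to 23.4 and 29.6 to 101, and endothelial markers (Cdh5, Pecam1, Kdr and others) 153 to 168 and 120 to 137, with 2 of 4, 3 of 4 higher and 2 of 5 lower without overlap. Adipocyte markers came to between 0 and 0.0184 in Chow, where Adipoq, Cfd and Cidec were at 0 in every library, and to 28.2 to 58.6 in HFpEF. Atrial markers (Myl7, Sln and Myl4) varied within both groups, at 4.19, 0.529 and 342 in Chow replicates 1 to 3 and 1406, 2883 and 12.6 in HFpEF replicates 1 to 3. Atrial transcripts were thus high in some libraries of both groups, although the study names left ventricle, and their source was not tested. Cartilage and valve markers (Fmod, Comp, Chad and others) came to 5.87 to 8.18 in Chow and to 62.9, 16.0 and 45.6 in HFpEF. Smooth muscle and pericyte markers (Rgs5, Myh11, Kcnj8 and Cnn1) came to 178 to 206 in Chow and 134 to 223 in HFpEF. That list was split, with 2 of 4 higher and 2 lower by log2 fold change, and 1 lower without overlap. Immediate early genes (Egr1, Fos, Atf3 and Fosb) came to 7.04 to 37.3 and 11.4 to 54.1. In bulk tissue, fewer cells of a type and less RNA per cell cannot be told apart, and the part of these differences in the results that follow was not tested.

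Of the 39 signaling genes, 34 reached 0.5 FPKM in at least 3 libraries and were tested within a limma fit over all 14227 genes that did so. The 5 others were Inhba, Mstn, Gdf15, Bmp7 and Grem1. No member passed an adjusted p of 0.05, either with a log2 fold change of at least 2, which 0.0562% of all genes tested did, or without a fold threshold, which 0.0984% did (Benjamini-Hochberg adjustment over all genes). At an unadjusted p under 0.05, 16 of the 34 members were higher in HFpEF, against 10.2% of all genes tested, and 0 were lower, against 13.1%. In 17 of the 34, every HFpEF library lay above every Chow library, against 15.5% of all genes, and in 0 did every HFpEF library lie below, against 19.8%. The median log2 fold change of the members was 0.52, and that of all genes was -0.01, which median-of-ratios scaling holds near 0. Both counts depend in part on the expression minimum: Inhbb, Ltbp2, Fst, Fstl3 and Chrdl1 reached it in fewer than 3 Chow libraries and so passed only with the help of their HFpEF libraries, and all 5 are in both counts. Of the other 29 members, 11 were higher at an unadjusted p under 0.05 and 12 lay above Chow without overlap. By role, over all tested members, the median was 0.78 for the ligands, 0.72 for the latent binding proteins and 1.53 for the antagonists, and 0.17 for the receptors, 0.16 for the Smads and modulators and 0.28 for the Id genes. The medians include the 5 genes that the expression minimum favored, so the order of the roles depends in part on it. Fst, Fstl3 and Chrdl1 are antagonists, and the antagonist median is the value of Fstl3.

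**Figure D1:**
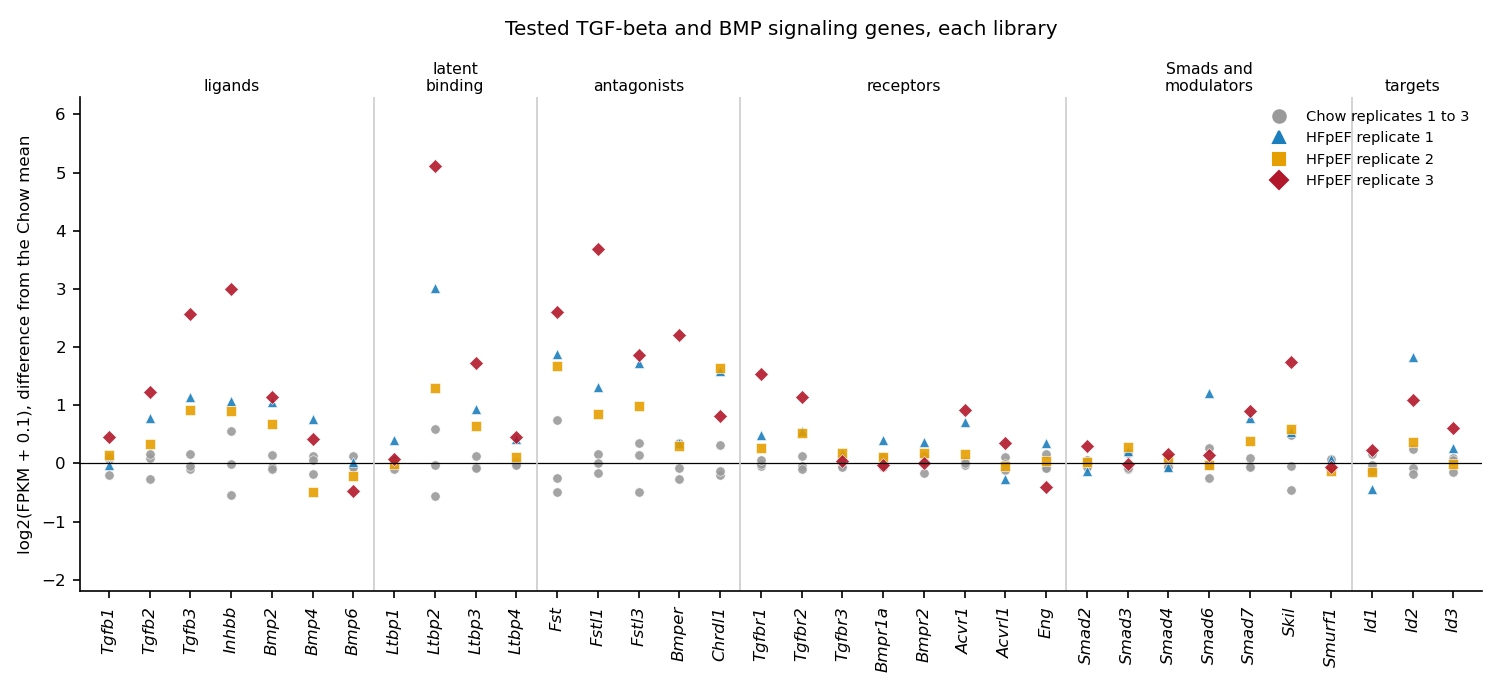
Difference of log2(FPKM + 0.1) from the Chow mean (vertical axis) for each of the 34 tested signaling genes (horizontal axis, in 6 role groups), with 1 point per library. HFpEF replicate 3 gave the highest point of the HFpEF libraries in 22 of the 34 genes, and the largest departures lay among ligands, latent binding proteins and antagonists.

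HFpEF replicate 3 had the highest value of the HFpEF libraries in 22 of the 34 members, HFpEF replicate 1 in 9 and HFpEF replicate 2 in 3, while over all genes tested the shares were 38.5%, 30.2% and 31.3%. Without HFpEF replicate 3, the median log2 fold change of the members was 0.35. In that fit 5 members were higher at an adjusted p under 0.05, against 2.85% of all genes, and 0 lower, against 5.5%. The 5 were Tgfb3, a TGF-beta ligand, Ltbp3, a latent binding protein, Fstl1, a secreted follistatin-like glycoprotein, Chrdl1, a BMP antagonist, and Tgfbr2, the type II TGF-beta receptor. Leaving out any other single library gave 0 members at that threshold. Chrdl1 passed the expression minimum only with the help of its HFpEF libraries, so the count of 5 depends in part on that minimum.

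**Figure D2:**
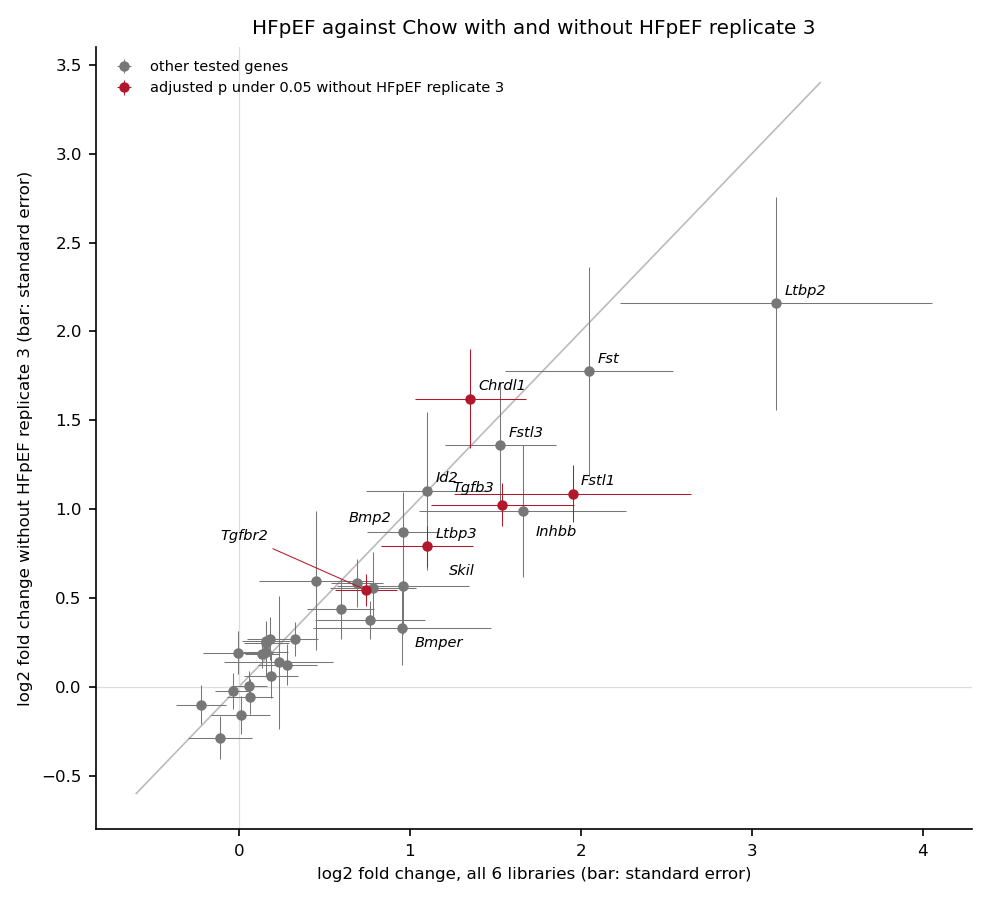
Log2 fold change of HFpEF against Chow with all 6 libraries (horizontal axis) and without HFpEF replicate 3 (vertical axis) for the 34 tested signaling genes, with standard errors as bars and the line of equality. Red points mark the 5 genes at an adjusted p under 0.05 without that library, and Ltbp2, Fstl1 and Tgfb3 fall below the line while Chrdl1 lies above it.

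Upstream sequences are shown for 5 members because genes that moved together and genes that did not can be set side by side: Inhbb, Ltbp3 and Tgfbr2 lay above Chow in every HFpEF library, and Tgfb1 and Smad3 overlapped. Each is the 250 bases before the RefSeq start of the gene on its own strand (GRCm38.p6), and holds no exon of the GENCODE M21 annotation. Inhbb is at chr1:119422249-119422498 (minus strand), Ltbp3 at chr19:5740650-5740899 (plus), Tgfbr2 at chr9:116175364-116175613 (minus), Tgfb1 at chr7:25686752-25687001 (plus) and Smad3 at chr9:63757995-63758244 (minus). Capitals mark CAGAC, a short Smad-binding element, and GGCGC, a GC-rich element known from BMP-responsive genes, each searched on both strands.
Inhbb: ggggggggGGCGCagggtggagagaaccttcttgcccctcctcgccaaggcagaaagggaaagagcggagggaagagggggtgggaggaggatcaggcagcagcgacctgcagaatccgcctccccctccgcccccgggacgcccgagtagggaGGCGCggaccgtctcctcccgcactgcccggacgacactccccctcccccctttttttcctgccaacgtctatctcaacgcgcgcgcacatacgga
Ltbp3: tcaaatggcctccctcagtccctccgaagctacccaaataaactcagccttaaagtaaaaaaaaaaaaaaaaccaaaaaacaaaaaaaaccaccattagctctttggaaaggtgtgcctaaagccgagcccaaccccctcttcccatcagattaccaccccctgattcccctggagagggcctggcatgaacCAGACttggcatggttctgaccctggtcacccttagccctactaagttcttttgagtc
Tgfbr2: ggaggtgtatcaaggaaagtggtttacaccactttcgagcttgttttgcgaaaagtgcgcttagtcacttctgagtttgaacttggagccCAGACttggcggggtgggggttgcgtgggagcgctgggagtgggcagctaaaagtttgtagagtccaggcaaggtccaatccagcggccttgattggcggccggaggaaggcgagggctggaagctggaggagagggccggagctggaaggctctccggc
Tgfb1: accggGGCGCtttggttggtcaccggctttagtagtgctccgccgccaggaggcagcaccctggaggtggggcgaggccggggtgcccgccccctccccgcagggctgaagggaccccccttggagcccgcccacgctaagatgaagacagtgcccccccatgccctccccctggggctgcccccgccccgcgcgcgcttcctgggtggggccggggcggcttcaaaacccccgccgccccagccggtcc
Smad3: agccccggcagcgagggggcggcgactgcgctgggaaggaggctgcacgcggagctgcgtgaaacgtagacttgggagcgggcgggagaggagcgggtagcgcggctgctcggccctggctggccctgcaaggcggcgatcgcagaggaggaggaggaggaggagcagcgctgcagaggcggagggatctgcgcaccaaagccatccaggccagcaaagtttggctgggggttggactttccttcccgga
The Ltbp3 and Tgfbr2 windows each held 1 CAGAC and 0 GGCGC, the Inhbb window 2 GGCGC, the Tgfb1 window 1 GGCGC, and the Smad3 window neither. Marked matches did not overlap. RefSeq windows were matched for 27 of the 39 members. CAGAC was present in 14 of the 27 and in 42.2% of all 32851 windows of this length, and GGCGC in 15 of the 27 and in 32.0% of all windows. A member was counted if any of its windows held the motif. The percentages are shares of single windows, so the counts and percentages cannot be compared directly. The marked stretches are matches of letters, not sites of binding.

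Among the TGF-beta ligands, Tgfb3 and Tgfb2 were higher in all HFpEF libraries and Tgfb1, the most studied isoform in fibrosis, overlapped. Tgfb3 (chr12:86056745-86079041, GRCm38) stood at 5.40, 5.59 and 6.48 FPKM in Chow replicates 1 to 3 and at 12.9, 11.0 and 35.1 FPKM in HFpEF replicates 1 to 3. Every HFpEF library thus lay above every Chow library, with HFpEF replicate 3 far above the other two. The log2 fold change was 1.54 (SE 0.42, adjusted p = 0.125) and 1.03 without HFpEF replicate 3 (adjusted p = 0.0138). Tgfb2 was at 2.39, 1.84 and 2.50 FPKM in Chow and 3.89, 2.84 and 5.37 FPKM in HFpEF, a log2 fold change of 0.78 (SE 0.25, adjusted p = 0.155). Its groups did not overlap, with a gap of the same order as the spread within Chow. Tgfb1 was at 8.29, 8.48 and 6.81 FPKM in Chow and 7.72, 8.64 and 10.8 FPKM in HFpEF, where only HFpEF replicate 3 was clearly above Chow, and its log2 fold change was 0.19 (SE 0.16, adjusted p = 0.478).

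Within the summed FPKM of the 3 isoforms, the leading transcript changed from Tgfb1 to Tgfb3. The Tgfb3 share was 33.6%, 35.1% and 41.0% in Chow and 52.7%, 48.9% and 68.5% in HFpEF, or 36.6% ± 3.94 against 56.7% ± 10.4 (SD, n = 3 each; exact two-sided permutation p = 0.1, the smallest that 3 against 3 allows). The Tgfb1 share was 49.3% ± 5.44 in Chow and 30.3% ± 8.76 in HFpEF (exact p = 0.1), and the Tgfb2 share was 14.1% ± 2.24 and 13.0% ± 2.70 (exact p = 0.7). Tgfb1 was the most abundant isoform in each Chow library and Tgfb3 in each HFpEF library. Without HFpEF replicate 3 the Tgfb3 share was still 14.2 percentage points higher in HFpEF, compared with 20.1 points with it. Per library, the summed FPKM of the 3 isoforms was 15.8 to 16.1 in Chow and 24.5, 22.5 and 51.2 in HFpEF.

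**Figure D3:**
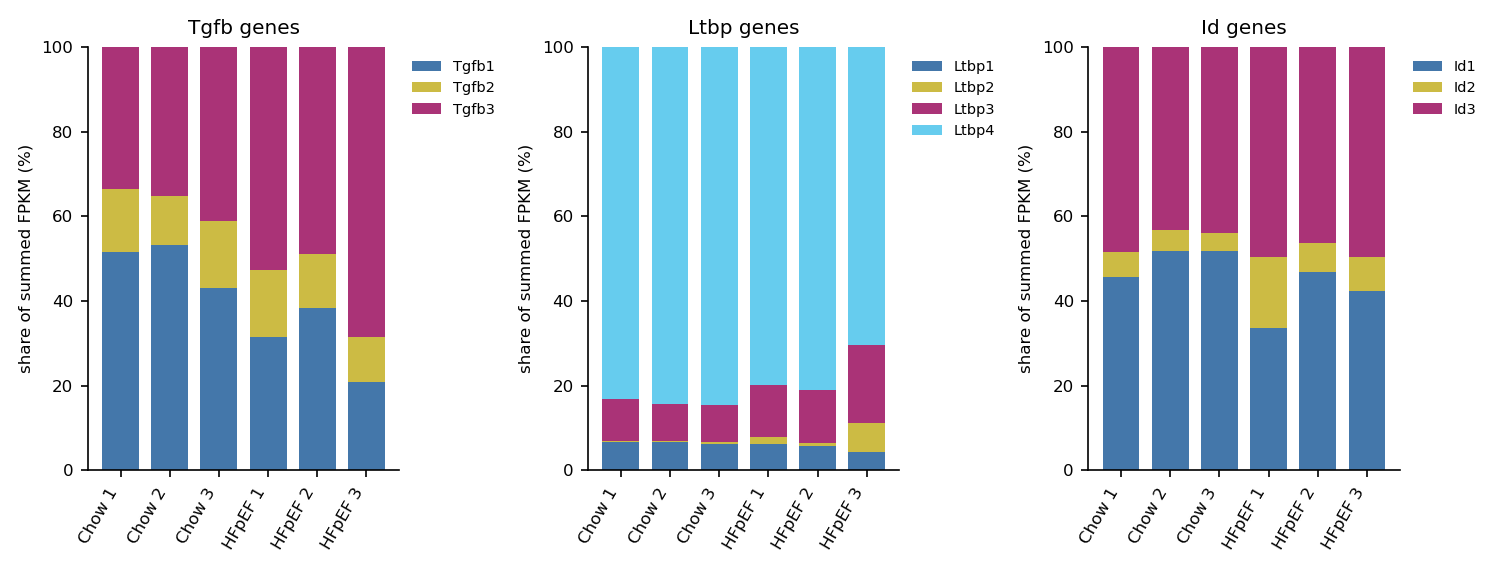
Share of summed FPKM (vertical axis, percent) of the Tgfb, Ltbp and Id genes in each of the 6 libraries (horizontal axis). Tgfb3 took 48.9% to 68.5% in HFpEF and 33.6% to 41.0% in Chow, and Id2 took 16.8% in HFpEF replicate 1.

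The activin subunit genes were low in Chow. Inhbb, which encodes the beta-B subunit, was at 0.578, 0.901 and 0.369 FPKM in Chow and 1.34, 1.18 and 5.37 FPKM in HFpEF, with a log2 fold change of 1.66 (SE 0.60, adjusted p = 0.181) and 0.99 without HFpEF replicate 3. Inhba, the beta-A subunit gene, was at 0.209, 0.133 and 0.246 FPKM in Chow and 1.10, 0.296 and 3.43 FPKM in HFpEF and was not tested. Both were above Chow in every HFpEF library and highest in HFpEF replicate 3. Gdf15, a stress-induced ligand, was below 0.3 FPKM in every library except HFpEF replicate 3 (1.57 FPKM), and Mstn, which encodes the muscle growth inhibitor myostatin, was between 0.122 and 0.378 FPKM in all libraries.

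The BMP ligands did not move as one group. Bmp2 was higher in every HFpEF library, at 1.67, 1.26 and 1.76 FPKM against 0.711, 0.839 and 0.698 FPKM in Chow, with a log2 fold change of 0.96 (SE 0.21, adjusted p = 0.107). Bmp6, the most abundant BMP ligand of the set, was at 14.1, 12.3 and 12.3 FPKM in Chow and 13.1, 11.0 and 9.27 FPKM in HFpEF, and its log2 fold change of -0.22 (adjusted p = 0.38) turned positive when libraries were scaled to equal sums over nuclear genes. Bmp6 shares exon positions on the other strand with Txndc5, and the sources used here do not say whether counting used strand, so reads of this pair may be mixed. Bmp4 was at 3.00 to 3.72 FPKM in Chow and at 5.88, 2.39 and 4.61 FPKM in HFpEF, spanning the Chow values, and its fold change turned negative without HFpEF replicate 1. Bmp7 was at 0.664, 0.424 and 0.658 FPKM in Chow and 0.341, 0.397 and 0.270 FPKM in HFpEF. It was the one member with every HFpEF library below Chow, but it missed the expression minimum and was not tested.

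Latent binding proteins were led by Ltbp4, the most abundant transcript of the whole set, which was at 120, 124 and 120 FPKM in Chow and 163, 132 and 165 FPKM in HFpEF (log2 fold change 0.33, SE 0.14, adjusted p = 0.211). Ltbp3 was at 14.4, 12.5 and 12.4 FPKM in Chow and 25.2, 20.5 and 43.5 FPKM in HFpEF. All HFpEF libraries lay above Chow, and the log2 fold change was 1.10 (SE 0.27, adjusted p = 0.119), or 0.79 without HFpEF replicate 3 (adjusted p = 0.0193). The Ltbp3 values did not come out as whole reads in every library. Ltbp2, a matrix protein that binds fibrillin, gave the largest fold change of the tested members: it was at 0.215, 0.354 and 0.606 FPKM in Chow and 3.68, 1.05 and 16.0 FPKM in HFpEF, a log2 fold change of 3.14 (SE 0.91, adjusted p = 0.137). The HFpEF libraries were wide apart, all above Chow, and without HFpEF replicate 3 the value was 2.16 (adjusted p = 0.0883). Ltbp1 overlapped, at 8.99 to 9.98 FPKM in Chow and 9.51 to 12.7 FPKM in HFpEF. As a share of the summed Ltbp FPKM, Ltbp3 was 9.08% ± 0.749 in Chow and 14.5% ± 3.50 in HFpEF, Ltbp2 0.273% ± 0.142 and 3.08% ± 3.27, and Ltbp4 84.0% ± 0.727 and 77.0% ± 5.76 (SD, n = 3 each; exact permutation p = 0.1 for each). Without HFpEF replicate 3, the difference in the Ltbp3 share went from 5.39 to 3.37 percentage points and that in the Ltbp2 share from 2.81 to 0.948 points.

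**Figure D4:**
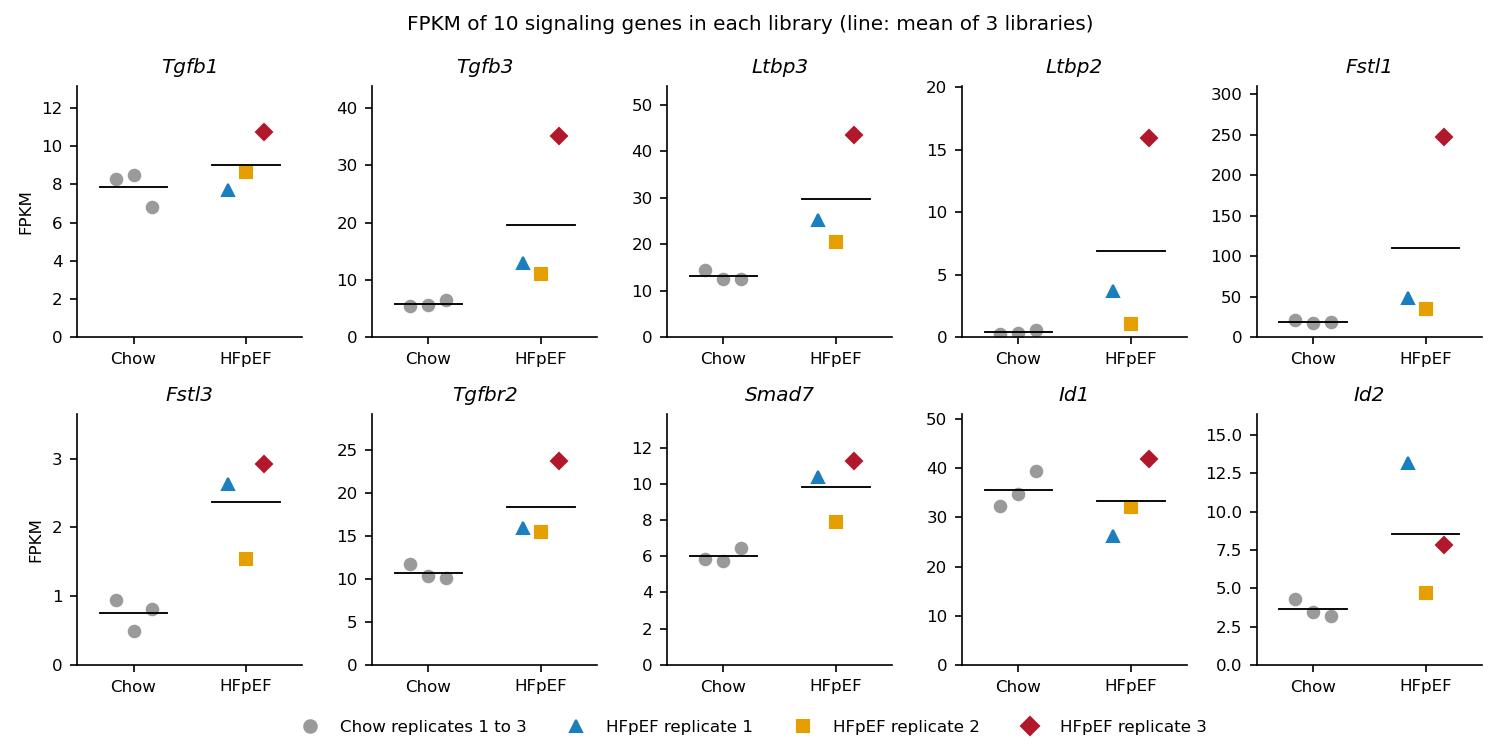
FPKM (vertical axis, linear from 0, 1 scale per gene) of 10 signaling genes in each Chow and HFpEF library, with the mean of 3 libraries as a line. Tgfb1 and Id1 overlap between the groups, while the other 8 genes lie above Chow in every HFpEF library, with the widest spread for Fstl1, at 34.8 to 247 FPKM.

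Of the 6 antagonists, 5 were tested, and Fstl1, Fst, Fstl3 and Chrdl1 lay above Chow in every HFpEF library at an unadjusted p under 0.05. Fst, Fstl3 and Chrdl1 needed their HFpEF libraries to pass the expression minimum, so that their direction is in part fixed by it. Fstl1 had the largest level among them, at 21.4, 17.1 and 19.3 FPKM in Chow and 48.2, 34.8 and 247 FPKM in HFpEF, and its log2 fold change was 1.95 (SE 0.69, adjusted p = 0.175), or 1.09 without HFpEF replicate 3 (adjusted p = 0.0212). The library with the highest Fstl1 was also the one with the highest Col1a1 and the highest fibroblast marker sum, and that relation was not tested. Fst, which encodes the activin-binding protein follistatin, was at 0.352, 0.0929 and 0.126 FPKM in Chow and 0.897, 0.759 and 1.53 FPKM in HFpEF (log2 fold change 2.05, SE 0.49, adjusted p = 0.118). No Chow library of Fst reached the expression minimum. Fstl3, a second activin-binding protein, was at 0.948, 0.488 and 0.812 FPKM in Chow and 2.63, 1.54 and 2.92 FPKM in HFpEF (log2 fold change 1.53, SE 0.33, adjusted p = 0.106).

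Chrdl1 differed in its pattern over libraries, at 0.582, 0.378 and 0.404 FPKM in Chow and 1.56, 1.62 and 0.866 FPKM in HFpEF, so that HFpEF replicate 3 was the lowest of its group. Its log2 fold change was 1.35 (SE 0.32, adjusted p = 0.118) and rose to 1.62 without that library (adjusted p = 0.0276). Bmper, a secreted BMP-binding protein, was at 1.57 to 2.48 FPKM in Chow and 2.50, 2.39 and 9.20 FPKM in HFpEF. Its groups overlapped, and the log2 fold change of 0.96 (SE 0.52, adjusted p = 0.307) fell to 0.33 without HFpEF replicate 3. Grem1, which encodes gremlin, had 0 reads in all 6 libraries, which allows up to 3 reads per library by counting error alone.

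Of the 8 receptor transcripts, 2 were higher at an unadjusted p under 0.05, against 10.2% of all genes. Tgfbr2 was at 11.7, 10.4 and 10.1 FPKM in Chow and 15.9, 15.5 and 23.7 FPKM in HFpEF. Each HFpEF library exceeded each Chow library, and the log2 fold change was 0.74 (SE 0.18, adjusted p = 0.119), or 0.55 without HFpEF replicate 3 (adjusted p = 0.0248). Acvr1, a type I receptor for BMPs and activins, was at 3.85, 4.04 and 3.96 FPKM in Chow and 6.52, 4.45 and 7.54 FPKM in HFpEF (log2 fold change 0.60, SE 0.20, adjusted p = 0.161). Tgfbr1, the type I TGF-beta receptor, was at 3.90 to 4.20 FPKM in Chow and 5.70, 4.90 and 12.0 FPKM in HFpEF. Its groups did not overlap, with HFpEF replicate 3 far above the rest, and its log2 fold change was 0.77 (SE 0.32, adjusted p = 0.216) and 0.38 without that library.

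The other 5 receptors overlapped between groups. The BMP receptor transcripts Bmpr1a and Bmpr2 had log2 fold changes of 0.16 and 0.18, and the co-receptor Tgfbr3 0.14. Acvrl1 and Eng encode a receptor and a co-receptor that are best known from endothelium. Acvrl1 was at 10.5 to 12.2 FPKM in Chow and 9.35 to 14.4 FPKM in HFpEF, and Eng at 58.7 to 69.3 FPKM in Chow and 79.3, 63.7 and 46.9 FPKM in HFpEF. Their log2 fold changes were 0.01 and -0.01, and both turned sign, Acvrl1 when HFpEF replicate 3 or Chow replicate 1 was left out and Eng in those fits, under quantile normalization, under equal nuclear sums and with voom on recovered reads. Acvrl1, Bmpr1a and Eng share exon positions with expressed genes on the other strand.

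The signal-transducing Smads overlapped between groups. Smad4 was at 17.4 to 19.4 FPKM in Chow and 17.4 to 20.3 FPKM in HFpEF, Smad3 at 5.31 to 6.41 and 5.65 to 6.92 FPKM, and Smad2 at 5.15 to 5.59 and 4.92 to 6.67 FPKM. Their log2 fold changes were 0.06, 0.16 and 0.06, and that of Smad2 turned negative without HFpEF replicate 3. Among the inhibitory Smads, Smad7 was higher in every HFpEF library, at 10.4, 7.89 and 11.3 FPKM against 5.84, 5.73 and 6.44 FPKM in Chow, with a log2 fold change of 0.69 (SE 0.15, adjusted p = 0.108) and 0.58 without HFpEF replicate 3 (adjusted p = 0.0544). Smad6, the inhibitory Smad associated with BMP signaling, was at 8.22, 5.74 and 6.71 FPKM in Chow and 16.0, 6.72 and 7.59 FPKM in HFpEF, so that HFpEF replicate 1 alone stood above Chow. Skil, which encodes the Smad co-repressor SnoN, was at 2.83, 2.09 and 4.12 FPKM in Chow and 4.28, 4.45 and 9.98 FPKM in HFpEF (log2 fold change 0.96, SE 0.39, adjusted p = 0.204, and 0.57 without HFpEF replicate 3). Smurf1, a ubiquitin ligase acting on Smads and receptors, was at 9.34 to 10.6 FPKM in Chow and 9.18 to 10.6 FPKM in HFpEF, and its log2 fold change of -0.04 turned positive under equal nuclear sums, without Chow replicate 2 and without HFpEF replicate 2.

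The Id genes encode helix-loop-helix inhibitors that BMP signaling induces directly. Id2 was at 4.29, 3.43 and 3.19 FPKM in Chow and 13.2, 4.70 and 7.81 FPKM in HFpEF. All HFpEF libraries exceeded Chow, with HFpEF replicate 1 highest and HFpEF replicate 2 close to the Chow range, and the log2 fold change was 1.10 (SE 0.36, adjusted p = 0.156). Id1 was at 32.3, 34.7 and 39.5 FPKM in Chow and 26.3, 32.2 and 41.8 FPKM in HFpEF, which overlapped, and its log2 fold change of -0.11 (adjusted p = 0.737) was positive under quantile normalization, under equal nuclear sums and without HFpEF replicate 1. Id3 was at 34.3, 29.0 and 33.4 FPKM in Chow and 38.7, 31.9 and 48.8 FPKM in HFpEF (log2 fold change 0.28, adjusted p = 0.351). The Id2 share of the summed Id FPKM was 5.11% ± 0.931 in Chow and 10.5% ± 5.48 in HFpEF (SD, n = 3 each; exact permutation p = 0.1), and was 16.8% in HFpEF replicate 1. Without that library the difference in share went from 5.42 to 2.27 percentage points.

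Other genes of the pathway were described from lists of 76 ligands, extracellular regulators, receptors and Smad modulators that are not members. Of these, 48 were tested, 13 were higher and 4 lower at an unadjusted p under 0.05, against 10.2% and 13.1% of all genes, and 0 passed the adjusted threshold, against 0.0984%. Without HFpEF replicate 3, 3 were higher and 1 lower at an adjusted p under 0.05, against 2.85% and 5.5%. Their median log2 fold change was 0.23. These counts and the median also depend in part on the expression minimum. Gdf7, at 0.0987, 0 and 0.523 FPKM in Chow and 1.47, 2.94 and 0.364 FPKM in HFpEF, passed it only with its HFpEF libraries. It is among the 13 that were higher, and other such genes of these lists were not counted apart. Ski, a Smad co-repressor related to Skil, was at 20.3, 20.2 and 21.6 FPKM in Chow and 31.7, 29.0 and 37.4 FPKM in HFpEF (log2 fold change 0.65, SE 0.12, adjusted p = 0.0977, and 0.0168 without HFpEF replicate 3). Pmepa1, a feedback inhibitor of TGF-beta signaling, was at 4.36, 4.80 and 5.25 FPKM in Chow and 13.1, 7.71 and 16.2 FPKM in HFpEF (log2 fold change 1.28, SE 0.27, adjusted p = 0.105, 0.0496 without HFpEF replicate 3 and 0.0439 without HFpEF replicate 2). Thbs1, which encodes thrombospondin 1, an activator of latent TGF-beta, was at 0.960, 1.53 and 1.51 FPKM in Chow and 17.1, 1.74 and 44.7 FPKM in HFpEF, where HFpEF replicate 2 barely exceeded Chow (log2 fold change 3.00, SE 1.08, adjusted p = 0.179). Its log2 fold change was 4.30 without HFpEF replicate 2 (adjusted p = 0.0439) and 2.00 without HFpEF replicate 3 (adjusted p = 0.288).

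Among the integrin chains that also release TGF-beta from its latent complex, Itgav had a log2 fold change of 0.88 (SE 0.23, adjusted p = 0.12, and 0.0437 without HFpEF replicate 3) and Itgb8 of 1.14 (SE 0.39, adjusted p = 0.166). Itgb6, which was added after its values were seen, went the other way, at 3.48, 3.26 and 2.73 FPKM in Chow and 2.26, 2.27 and 1.69 FPKM in HFpEF (log2 fold change -0.59, SE 0.17, adjusted p = 0.137). Dand5, a secreted antagonist of nodal, was lower in every HFpEF library, at 4.83, 4.73 and 2.42 FPKM against 6.47, 6.94 and 6.42 FPKM in Chow (log2 fold change -0.78, SE 0.27, adjusted p = 0.167), and passed the adjusted threshold without HFpEF replicate 3 (-0.46, adjusted p = 0.0352). The ligand gene Gdf10 and the modulators Tgif1 and Tgfb1i1 were higher in each HFpEF library, with log2 fold changes of 1.26, 1.05 and 0.78 and adjusted p between 0.133 and 0.151.

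Textbook target genes of both branches were set beside the members. Of 21 TGF-beta targets, 20 were tested, 17 lay above Chow in every HFpEF library, against 15.5% of all genes, and 13 were higher at an unadjusted p under 0.05, against 10.2%. Of the 20, 18 are not members, and of these 15 lay above Chow in every HFpEF library and 11 were higher at an unadjusted p under 0.05. Over all 20, the median log2 fold change was 1.94, or 1.11 without HFpEF replicate 3. In that fit 8 had an adjusted p under 0.05, against 2.85% of all genes. In 18 of the 20, the top HFpEF value came from replicate 3. Among the targets without overlap and at an unadjusted p under 0.05, the largest changes were in Postn, which encodes the matrix protein periostin, in the collagen cross-linking enzyme gene Lox, in the metalloproteinase inhibitor gene Timp1 and in Thbs1. Postn was at 4.27, 4.61 and 5.80 FPKM in Chow and 19.2, 16.2 and 356 FPKM in HFpEF (log2 fold change 3.28, SE 1.14, adjusted p = 0.17, and 1.84 with adjusted p = 0.0118 without HFpEF replicate 3). Lox and Timp1 had log2 fold changes of 2.85 and 3.04, with 1.76 and 1.92 without that library.

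Of 14 BMP targets, which include the Id genes, Smad6 and Smad7, 11 were tested and 3 were higher at an unadjusted p under 0.05, against 10.2% of all genes, namely Id2, Smad7 and Bambi, a decoy receptor. Id2 and Smad7 are members counted above, and of the 6 tested BMP targets that are not members, 1 was higher. Bambi was at 3.34, 3.08 and 3.31 FPKM in Chow and 4.41, 4.40 and 4.20 FPKM in HFpEF (log2 fold change 0.41, SE 0.10, adjusted p = 0.119). The median over the list was 0.39, and 0 had an adjusted p under 0.05 with or without HFpEF replicate 3. In 7 of the 11, the top HFpEF value came from replicate 1, and in 3 from replicate 3. Both lists hold genes that other signals also induce. Targets low in Chow could pass the expression minimum through their HFpEF libraries, and such genes were not counted apart.

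**Figure D5:**
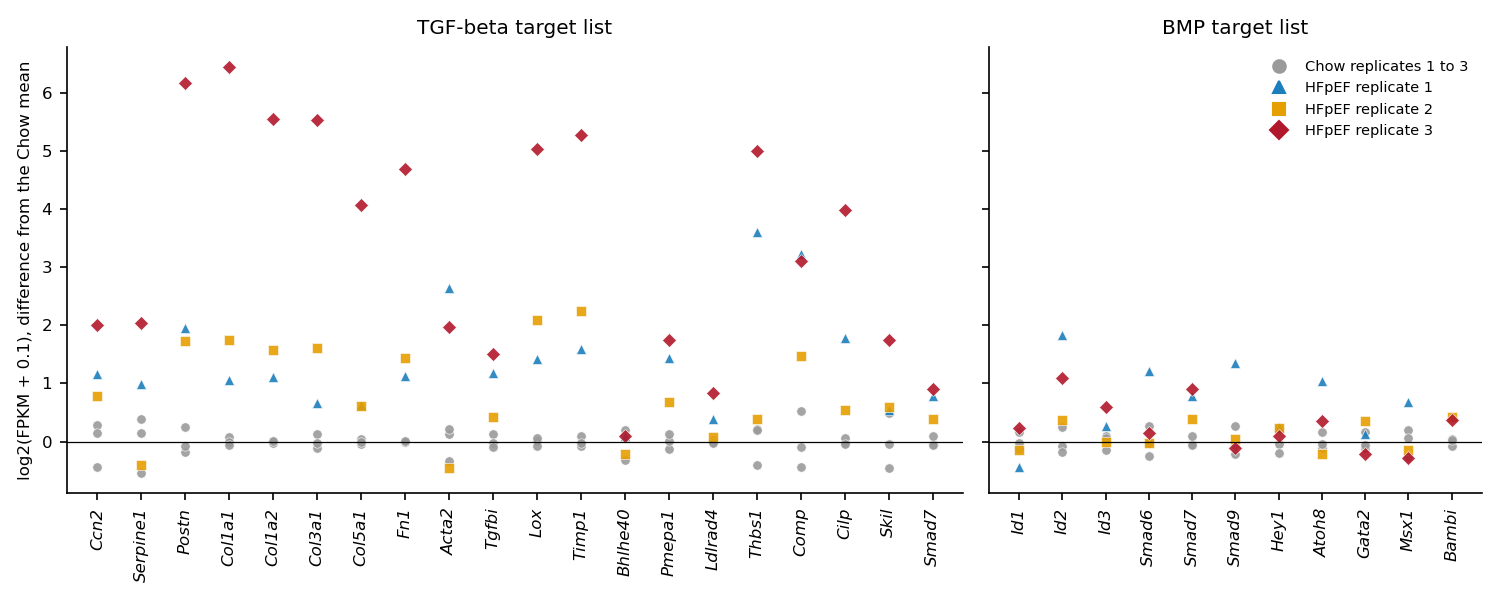
Difference of log2(FPKM + 0.1) from the Chow mean (vertical axis) for the 20 tested TGF-beta targets and the 11 tested BMP targets (horizontal axis), with 1 point per library. HFpEF replicate 3 is highest of the HFpEF libraries in 18 of the 20 TGF-beta targets, and HFpEF replicate 1 in 7 of the 11 BMP targets.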

How the data were processed

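RNA from hearts of 3 Chow and 3 HFpEF mice was made into libraries with the SMARTER mRNA-Seq kit. The authors aligned reads with HISAT2 and counted them with featureCounts, and deposited FPKM. The submitters' processing notes name GRCm38 and mm10, and the annotation, the FPKM formula and the use of strand are not given in the sources used here. Of 54532 identifiers, 54495 were matched to GENCODE M21 (GRCm38) for symbols, positions and exon lengths. FPKM multiplied by exon length gave whole reads for 96.1% to 96.2% of values above 0 (relative tolerance 1e-06), which set the depth.

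FPKM was rescaled by median of ratios, with factors of 0.9986 to 1.0018 that changed the deposited values little. Genes with at least 0.5 FPKM in at least 3 libraries were kept. For these, log2(FPKM + 0.1) was fitted with limma 3.58.1 in R 4.3.3 (trended, robust). Fold changes on this scale understate those of low genes. P-values were adjusted over all 14227 genes (Benjamini-Hochberg). The method was tested on simulated data. Single shares were compared by exact permutation. For 3 against 3 the smallest exact p is 0.1. Upstream windows came from RefSeq. FPKM is printed as deposited, and marker sums are of rescaled FPKM. The members and lists were chosen with earlier results of these data known. All members were named, with up to 4 genes from each other pathway and target list by absolute log2 fold change among those at an unadjusted p under 0.05 without overlap, and up to 3 markers per list by mean FPKM, with remaining list members added to complete short lists. Alternatives changed the scaling, pseudocount, filter, variance model, unit, block and libraries. Of the 39 members, 12 share exon positions with another gene, 6 of them with one at the FPKM minimum, and 36 had whole reads in every library.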

Additional observations from a re-analysis of the deposited data

How the results depend on the processing

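Of the 34 tested members, 27 kept their direction under each of the 16 alternatives that fitted them. Changing the filter, dropping the trended and robust options or adding the replicate block leaves a fold change as it is. Those settings therefore could not turn a direction. Fst and Chrdl1 missed the higher FPKM minimum and were not fitted under it. Scaling libraries to equal sums over nuclear genes moved the median log2 fold change of all genes from -0.01 to 0.24. Under it, calls of all genes at an unadjusted p under 0.05 went from 1454 higher and 1869 lower to 3663 higher and 604 lower, and adjusted calls from 14 to 77. Members higher without overlap went from 17 to 27, and the member median was 0.77. The share of all genes without overlap was not counted under this scaling. The same scaling turned Bmp6 to 0.029, Eng to 0.25, Id1 to 0.14 and Smurf1 to 0.22 on the log2 scale, quantile normalization turned Eng to 0.21 and Id1 to 0.056, and voom on recovered reads turned Eng to 0.0079; the causes were not tested. With no filter, 1 member (Bmp7) was lower without overlap, because that setting admits genes of low level.

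Leaving out 1 library at a time, members at an adjusted p under 0.05 ranged from 0 to 5 (5 without HFpEF replicate 3). Members higher at an unadjusted p under 0.05 ranged from 11 to 19, where 897 to 1568 of all 14227 genes were higher. Members lower ranged from 0 to 1, where 1015 to 2132 of all genes were lower. Members lower without overlap ranged from 0 to 1, and the share of all genes was not counted for this. Other pathway genes past the unadjusted threshold ranged from 9 (without Chow replicate 2) to 18, against 17 with all libraries. Log2 fold changes then ranged from -0.16 to 0.15 for Acvrl1, -0.034 to 0.60 for Bmp4, -0.18 to 0.19 for Eng, -0.29 to 0.050 for Id1, -0.054 to 0.16 for Smad2 and -0.094 to 0.0073 for Smurf1. Adjusted calls over all genes were 14 with all libraries, 1188 when HFpEF replicate 3 was left out, 53 when HFpEF replicate 2 was, and 0 with voom on recovered reads (1437 higher and 1921 lower at an unadjusted p under 0.05).

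Same-numbered libraries deviated together by correlations of -0.04, -0.07 and -0.06 over genes, and differently numbered ones by -0.0022 to 0.072. These values gave no sign of pairing by number, but with 3 libraries per group they cannot decide it. With the replicate number as a replicate block, 15 members were higher at an unadjusted p under 0.05, against 1305 of all 14227 genes. In that fit 0 members passed the adjusted threshold, and adjusted calls over all genes went from 14 to 2.

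Depth limits the genes near the expression minimum: Fst rests on 5 to 23 reads per Chow library and 57 to 136 per HFpEF library.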

Other observations

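Several genes next to the pathway had values in HFpEF replicate 1 that no Chow library approached, and they were chosen after their values were seen. Bmp10, a ligand made by atrial cardiomyocytes, was listed at 0 FPKM in the 3 Chow libraries and at 148, 0.0263 and 0.0115 FPKM in HFpEF replicates 1 to 3. The summed atrial markers Myl7, Myl4 and Sln were at 4.19, 0.529 and 342 in Chow replicates 1 to 3. In HFpEF replicates 1 to 3 they were at 1406, 2883 and 12.6. The relation of Bmp10 to atrial tissue was not tested. Hamp, which encodes hepcidin and is induced by BMP signaling in liver, was at 40.9, 9.07 and 0 FPKM in HFpEF and at 0, 0 and 0.202 FPKM in Chow.

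Sost, which encodes the secreted antagonist sclerostin, was at 0.476 to 0.536 FPKM in Chow and 21.5, 0.429 and 6.62 FPKM in HFpEF. Cartilage and valve markers were highest in the same libraries, HFpEF replicates 1 and 3, with sums of 62.9 and 45.6 against 16.0 in HFpEF replicate 2. Acta2, the smooth muscle actin gene, was at 53.2 to 77.9 FPKM in Chow and 422, 48.8 and 262 FPKM in HFpEF, and Myh11, which marks smooth muscle, at 9.36 to 12.3 FPKM and 63.7, 6.99 and 30.4 FPKM. Of the smooth muscle and pericyte markers, which include Myh11, 2 of 4 were higher and 2 lower by log2 fold change. Id4 was at 0.129 to 0.421 FPKM in Chow and 1.80, 0.429 and 2.19 FPKM in HFpEF. For Sost, Acta2, Myh11 and Id4, HFpEF replicate 2 was the lowest of the HFpEF libraries and lay near or below the Chow range. The part of tissue composition in these values was not tested.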
